A study of Homo sapiens with 36 samples.

Results

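The matrix metalloproteinases examined here were a fixed list of 10 genes of this family, MMP1, MMP2, MMP3, MMP7, MMP9, MMP10, MMP13, MMP14, MMP15 and MMP28, out of 60725 genes in each table. They were listed by symbol and not by a rule on their values, but with earlier results of these data known. They were followed by RNA sequencing through 36 libraries in 18 groups of 2. Nothing in the labels says whether the 2 libraries of a group came from separate cultures, so p-values measure the spread between these libraries, which may be technical.

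Of these, 20 libraries came from ER-Src cells. This is the immortalised, non-transformed human breast epithelial line MCF-10A carrying a fusion of v-Src to the estrogen receptor's ligand-binding domain, and tamoxifen (TAM) activates this oncoprotein. All ER-Src groups carry the fusion, those without TAM included. Cells were given siRNA pools against YAP (YAPi), TAZ (TAZi), STAT3 (STAT3i) or JUNB (JUNBi), or a control siRNA (Ctrli), and then TAM or the vehicle ethanol (ETH). The labels call the TAM libraries transformed and the ETH libraries non-transformed. The other 16 libraries came from MDA-MB-231, a triple-negative breast cancer line, and the titles place them in 2 sets. Set 1 held Ctrli, YAPi, TAZi, both siRNAs together (YAPi_TAZi) and siRNAs against the TEAD family (TEADi). Set 2 held its own Ctrli libraries, numbered 3 and 4, with JUNBi and STAT3i. The protocol text, the same for all samples, names tamoxifen at 0.4 to 1.0 µM and the Src kinase inhibitor AZD0530 at 2.0 to 4.0 µM. It does not say which library received which dose or for how long. According to the study's methods, cells given siRNA later received tamoxifen together with AZD0530. Whether the ETH libraries received AZD0530 is not given there.

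Matrix metalloproteinases are zinc-dependent endopeptidases that cut the proteins of the extracellular matrix and of cell surfaces. Most are made as inactive proenzymes and are secreted, whereas the membrane-type members MMP14 and MMP15 stay anchored at the cell surface, where MMP14 can activate the MMP2 proenzyme. Several of their genes, though not all, are classic targets of AP-1, the dimer of JUN and FOS family proteins. Tissue inhibitors of metalloproteinases (TIMPs) block the active enzymes. In breast tissue the family is known for remodelling the stroma around ducts and for carrying tumour cells through basement membrane and collagen.

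By position, 5 of the 10 genes lie together on chromosome 11 in the GRCh38 build (GENCODE version 44), all on the minus strand. These are MMP7 (ENSG00000137673.8, chr11:102520508-102530750), MMP10 (ENSG00000166670.9, chr11:102770502-102780628), MMP1 (ENSG00000196611.4, chr11:102789401-102798160), MMP3 (ENSG00000149968.11, chr11:102835801-102843609) and MMP13 (ENSG00000137745.11, chr11:102942995-102955732). MMP2 (ENSG00000087245.12, chr16:55389700-55506691, plus strand) and MMP15 (ENSG00000102996.4, chr16:58025754-58046901, plus strand) share chromosome 16. MMP14 (ENSG00000157227.12) lies at chr14:22836560-22849041 on the plus strand, MMP9 (ENSG00000100985.7) at chr20:46008908-46016561 on the plus strand and MMP28 (ENSG00000271447.5) at chr17:35756249-35795707 on the minus strand. The counting was per gene over all exons. Genes on the opposite strand overlap MMP1, MMP3 and MMP10 (the pseudogene WTAPP1), MMP2 (MMP2-AS1), MMP9 (SLC12A5-AS1) and MMP28 (C17orf50). Whether counting used strand is not given in the sources used here, so reads from these pairs cannot be told apart.

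RefSeq promoter windows (GRCh38.p14) matched 4 of the 10 genes by symbol, MMP7, MMP10, MMP14 and MMP15. The window of MMP14 (chr14:22836335-22836584, plus strand) is shown because MMP14 gave the main response to TAM. The windows of MMP7 (chr11:102530748-102530997, minus strand) and MMP10 (chr11:102780629-102780878, minus strand) are shown beside it because they hold the AP-1 letters that MMP14 lacks. Each runs 5′ to 3′ on the strand of the gene over the 250 bases before the start, and capitals mark matches to the motif letters searched.
MMP14: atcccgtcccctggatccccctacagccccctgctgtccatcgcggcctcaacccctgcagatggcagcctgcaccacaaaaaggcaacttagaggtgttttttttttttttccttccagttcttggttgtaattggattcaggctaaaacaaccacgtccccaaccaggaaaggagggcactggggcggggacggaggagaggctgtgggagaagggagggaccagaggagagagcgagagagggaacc
MMP7: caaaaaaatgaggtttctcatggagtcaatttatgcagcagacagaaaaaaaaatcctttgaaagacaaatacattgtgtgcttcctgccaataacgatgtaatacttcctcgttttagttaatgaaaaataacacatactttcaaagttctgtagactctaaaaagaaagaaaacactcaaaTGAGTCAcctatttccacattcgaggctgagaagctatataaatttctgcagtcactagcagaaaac
MMP10: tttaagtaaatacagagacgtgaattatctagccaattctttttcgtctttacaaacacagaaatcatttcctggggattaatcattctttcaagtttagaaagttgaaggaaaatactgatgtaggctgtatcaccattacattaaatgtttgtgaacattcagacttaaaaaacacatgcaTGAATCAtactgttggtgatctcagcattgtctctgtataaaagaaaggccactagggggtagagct
MMP7 carries TGAGTCA 67 bases before its start, and MMP10 carries TGAATCA at the same distance of 67 bases. The letters searched on both strands were TGAGTCA and the looser TGANTCA for AP-1, which overlap, GGAATG for TEAD, and TTCCNGGAA and the looser TTCNNNGAA for STAT, which overlap as well. MMP14 and MMP15 held none of these letters in the window, which says only that the letters are not there. Of 35116 promoters of this length, 4.2% held TGAGTCA, 6.57% TGANTCA, 11.9% GGAATG, 0.968% TTCCNGGAA and 6.57% TTCNNNGAA. The looser letters were added after a first look at these windows.

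Depth, the sum of expected counts, was 6419720 to 19161700 per ER-Src library, 13456784 to 13534560 in the set 1 controls, 1411304 to 2784605 in the set 1 knockdowns and 7290499 to 18076158 in set 2. The set 1 libraries stood apart by kind. RNAs without a poly(A) tail, a list of 7 genes, took 8.71% to 11.8% of the counts in the set 1 knockdowns but 0.00278% to 0.00407% in their controls, so in set 1 the knockdown and the kind of library cannot be told apart. The set 1 knockdowns also split by replicate number, with a length minus effective length of 48.0 bases in every replicate 1 and 74.6 in every replicate 2. The 7 RNAs without a poly(A) tail took 9.43% to 11.7% of the counts in ER-Src and 0.00363% to 0.0112% in set 2. Within ER-Src, the difference between length and effective length was 49.0 bases in the STAT3i and JUNBi libraries and 49.5 in the others, which cannot be told apart from those knockdowns. The targeted genes had negative log2 fold changes against Ctrli in every knockdown. In ER-Src they were −2.49 in TAM and −2.38 in ETH for YAP1 in YAPi, −2.22 and −1.86 for WWTR1 (TAZ) in TAZi, and −2.66 and −1.88 for STAT3 in STAT3i. JUNB fell by 2.03 on the log2 scale in JUNBi TAM, whereas its value of −1.16 in JUNBi ETH was not called (adjusted p = 0.0643). In MDA-MB-231 they were −2.63 (YAPi) and −2.65 (YAPi_TAZi) for YAP1, −4.90 (TAZi) and −3.70 (YAPi_TAZi) for WWTR1, −0.82, −4.30, −1.62 and −6.34 for TEAD1, TEAD2, TEAD3 and TEAD4 in TEADi, −2.04 for JUNB in JUNBi and −2.41 for STAT3 in STAT3i, the last without an adjusted p. Of 8 basal epithelial markers, 8 had a median of at least 1 TPM in ER-Src and 2 in MDA-MB-231, whereas all 4 mesenchymal-like markers did in both lines. Of 4 genes expected to be absent in MDA-MB-231, EPCAM was measured at 3.1 to 17.42 TPM.

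MMP14 was a main member in both lines, beside MMP28 in ER-Src and MMP1 in MDA-MB-231. In ER-Src the summed level of the 10 genes was 19.9 to 43.2 TPM (a level corrected for gene length and scaled to the whole library), and MMP14 made up 41.9% to 89.8% of it and MMP28 6.88% to 50.5%. MMP28, known as epilysin, is a secreted member described in keratinocytes and other epithelia. In the set 2 MDA-MB-231 libraries the sum was 194 to 354 TPM, with MMP1, an interstitial collagenase, at 42.9% to 72.5% and MMP14 at 19.4% to 51.9%. The set 1 controls summed to 638 to 698 TPM, of which MMP14 was 49.4% to 53.3% and MMP1 43.9% to 47.6%. The set 1 knockdowns summed to 101 to 249 TPM, with MMP14 at 54.9% to 73.1% and MMP1 at no more than 40.9%. MMP1 made at most 1.15% of the ER-Src sum, and MMP28 at most 0.392% of any MDA-MB-231 sum. The 2 lines were not tested against each other, because they differ in library kind, treatment and set as well as in identity. In bulk RNA such as this, fewer cells of a type and less RNA per cell cannot be told apart.

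**Figure D1:**
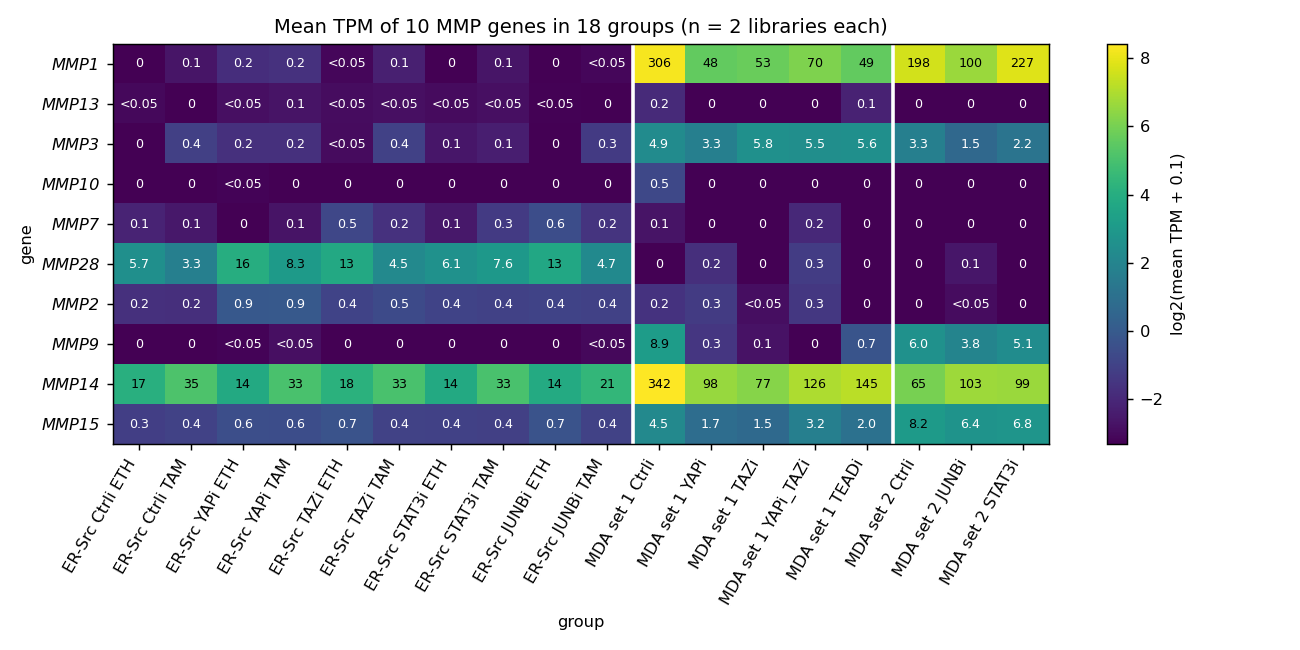
Mean level of the 10 matrix metalloproteinase genes (rows) in the 18 groups (columns, 2 libraries each), in TPM, with colour on a log2(mean TPM + 0.1) scale. MMP14 is present in all groups, MMP28 reaches 1 TPM in ER-Src groups and in no MDA-MB-231 group, and MMP1 is above 30 TPM in every MDA-MB-231 group and under 1 TPM in every ER-Src group.

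The other members were low or near 0. MMP15, the second membrane-type member, was at 0.22 to 0.94 TPM in ER-Src, at 1.38 to 4.62 TPM in set 1 and at 6.34 to 8.6 TPM in set 2. MMP2, a gelatinase, had 0.1 to 1.12 TPM in ER-Src and at most 2 counts in any MDA-MB-231 library. MMP9, the other gelatinase, was at 0 counts in 16 of 20 ER-Src libraries and at most 6 counts in the rest, but reached 8.61 and 9.25 TPM in the set 1 controls. MMP10, a stromelysin, was at 0 in 19 of 20 ER-Src libraries, and in MDA-MB-231 it had 6 and 9 counts in the set 1 controls and 0 in the 14 others. MMP13, a collagenase, did not exceed 4 counts in ER-Src, had 3 counts in each set 1 control, and was at 0 in 13 of the 16 MDA-MB-231 libraries. MMP7, or matrilysin, had 0 to 20 counts in ER-Src and was at 0 in 14 MDA-MB-231 libraries. At this depth MMP10 and MMP13 were not measurable in ER-Src and no fold is given for them.

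The comparison of TAM with ETH under Ctrli asks how the family responds to tamoxifen treatment. By the study's methods AZD0530 was given with tamoxifen, so the effect of Src activation alone cannot be told apart. MMP14 and MMP3 rose, and no member fell. These were 2 of the 10 members, 5 of which had an adjusted p. Among all 15934 genes tested, 6.11% were called, as in every comparison at an adjusted p under 0.01 from DESeq2 run over all genes. MMP14 was at 17.26 and 16.23 TPM in ETH and at 36.02 and 33.97 TPM in TAM. The groups did not overlap, and their means were 16.7 ± 0.728 and 35.0 ± 1.45 TPM (SD, n = 2). The log2 fold change was 1.48 (SE 0.11, adjusted p = 3.27e-38 by DESeq2), and it was 1.34 to 1.51 under the alternatives.

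MMP3, stromelysin, which cuts proteoglycans and laminin and can activate other proenzymes, was at 0 counts in both ETH libraries and at 18 and 9 counts in TAM (0.38 and 0.34 TPM). Set against a floor of 3 counts over the ETH group, the 27 counts were at least 13.1-fold higher (DESeq2 adjusted p = 0.00588). The call was lost without Ctrli ETH replicate 1, Ctrli ETH replicate 2 or Ctrli TAM replicate 2, fits that leave 1 library in a group. The log2 fold change, against ETH libraries at 0 counts, was 6.61, 6.78 and 6.84 in these fits. With effective-length offsets the call was lost as well (5.81, DESeq2 adjusted p = 0.0498).

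MMP28 ran the other way in level, from 4.86 and 6.53 TPM in ETH to 2.76 and 3.82 in TAM. The groups did not overlap, but its log2 fold change of −0.63 (SE 0.40) was not called (DESeq2 adjusted p = 0.534). MMP2 had 0.17 and 0.24 TPM in ETH and 0.3 and 0.1 in TAM, which overlap (log2 fold change 0.27, SE 1.25, DESeq2 adjusted p = 0.985). MMP15 gave −0.06 (SE 0.61, DESeq2 adjusted p = 0.993). MMP1 had 0 and 0 counts in ETH against 4 and 1 in TAM, at least 2.42-fold higher over the floor (DESeq2 unadjusted p = 0.194, with no adjusted p). MMP7 had 3 and 4 counts in ETH and 2 and 1 in TAM. MMP9 and MMP10 were at 0 in these 4 libraries, and MMP13 had 1 count in 1 of them.

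**Figure D2:**
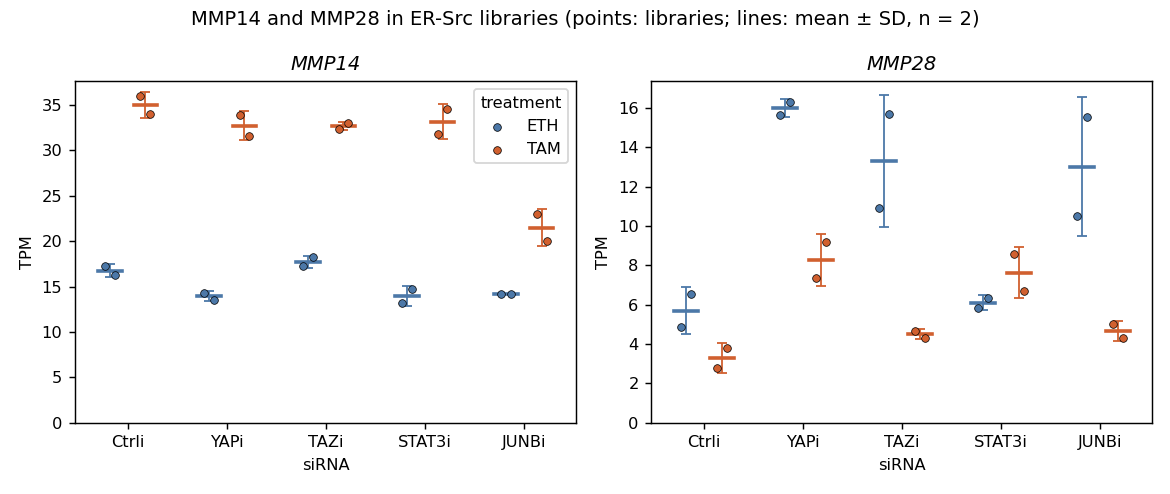
Levels of MMP14 and MMP28 in TPM (y axis, from 0) in the 20 ER-Src libraries, by siRNA and treatment (x axis), with 1 point per library and a bar at the mean of 2. MMP14 is higher in TAM than in ETH under all 5 siRNAs and lowest among the TAM groups in JUNBi, while MMP28 has its highest mean in YAPi ETH.

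MMP14 was called higher in TAM under 3 of the 4 knockdowns as well. Of all genes, DESeq2 called 4.31% between TAM and ETH in YAPi, 7.34% in TAZi, 0.813% in STAT3i and 2.12% under JUNBi. For MMP14, the levels in YAPi went from 14.3 and 13.53 TPM in ETH to 33.83 and 31.57 in TAM, a log2 fold change of 1.51 (SE 0.13, DESeq2 adjusted p = 6.55e-30). In TAZi it went from 17.28 and 18.2 to 32.34 and 33.01 TPM (1.02, SE 0.11, DESeq2 adjusted p = 5.75e-17). STAT3i libraries held 13.23 and 14.77 TPM in ETH and 31.8 and 34.53 in TAM (1.32, SE 0.19, DESeq2 adjusted p = 7.11e-09). That call was lost without STAT3i TAM replicate 2 (1.24) and by edgeR (adjusted p = 0.0486), which called 0 of all genes there. In JUNBi the step was from 14.16 and 14.21 TPM to 22.96 and 20.02 TPM, again without overlap. There the log2 fold change was 0.69 (SE 0.27) and was not called (DESeq2 adjusted p = 0.238). Without JUNBi ETH replicate 2 it was 0.98 and called (adjusted p = 1.79e-04), and it was also called in 1 fit over all groups (adjusted p = 0.000337).

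MMP28 was the only other member called within a knockdown. It fell in TAZi from 10.92 and 15.67 TPM in ETH to 4.68 and 4.33 in TAM, a log2 fold change of −1.46 (SE 0.27, DESeq2 adjusted p = 1.25e-06). The value was −1.11 (adjusted p = 0.061) without TAZi ETH replicate 2 and −1.40 (adjusted p = 0.0122) without TAZi TAM replicate 2. In JUNBi it went from 10.52 and 15.51 to 5.02 and 4.3 TPM (−1.35, SE 0.38, DESeq2 adjusted p = 0.0174), and it was called in 1 fit over all groups (−1.36, adjusted p = 0.00332), with effective-length offsets (−1.40, adjusted p = 0.00982) and without JUNBi ETH replicate 1 (−1.78, adjusted p = 6.18e-06). In YAPi the difference was −0.60 (DESeq2 adjusted p = 0.0778), and in STAT3i, where TAM levels of 8.55 and 6.71 TPM were above the ETH levels of 5.82 and 6.36, it was 0.45 (DESeq2 adjusted p = 1.0).

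MMP3 had more counts in TAM than in ETH under TAZi and JUNBi as well, in both cases without a DESeq2 call. TAZi libraries had 2 and 0 counts in ETH and 18 and 29 in TAM, a ratio of 16.5 with a 95% counting interval of 4.33 to 141 (DESeq2 adjusted p = 0.0535, edgeR adjusted p = 0.00902). JUNBi libraries had 0 and 0 counts in ETH and 4 and 8 in TAM, at least 3.68-fold higher. In STAT3i the counts were 3 and 1 in ETH and 1 and 2 in TAM. Intervals and floors on counts cover counting error only.

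The comparison of each knockdown with Ctrli in TAM asks what the factor contributes to expression in the transformed state. MMP14 was lower in JUNBi and in STAT3i, and MMP28 was higher in YAPi. Calls among all genes were 6.71% in JUNBi, 8.09% in STAT3i, 10.9% in YAPi and 3.53% in TAZi, and members with an adjusted p numbered 3, 5, 5 and 4. In TAZi DESeq2 and edgeR called 0 members, and 0 had an unadjusted DESeq2 p under 0.05, against 2206 of all genes. The 4 comparisons share the Ctrli TAM libraries.

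MMP14 in JUNBi was the only one of these calls kept under every alternative. It stood at 22.96 and 20.02 TPM against 36.02 and 33.97 in Ctrli (means 21.5 ± 2.08 and 35.0 ± 1.45 TPM, SD, n = 2), and the groups were well apart. The log2 fold change was −0.90 (SE 0.13, DESeq2 adjusted p = 5.79e-10). It lay between −1.01 and −0.79 in all 10 alternatives, with an adjusted p of at most 0.00141. In STAT3i the MMP14 levels of 31.8 and 34.53 TPM overlapped those of Ctrli. The count model gave −0.46 (SE 0.12, DESeq2 adjusted p = 0.0033), a call kept in 1 of 10 alternatives (−0.51 to −0.37, adjusted p up to 0.299), and lost without any 1 of the 4 libraries (adjusted p = 0.0197 to 0.299). YAPi (0.08, DESeq2 adjusted p = 0.718) and TAZi (−0.17, SE 0.10, DESeq2 adjusted p = 0.409) gave no call for MMP14.

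MMP28 reached 7.35 and 9.2 TPM in YAPi TAM against 2.76 and 3.82 in Ctrli TAM. The log2 fold change was 1.56 (SE 0.30, DESeq2 adjusted p = 8.92e-06). Without Ctrli TAM replicate 1 it was 1.31 (adjusted p = 0.0362) and without YAPi TAM replicate 2 it was 1.32 (adjusted p = 0.121). The STAT3i levels of 8.55 and 6.71 TPM also lay above Ctrli, with 0.94 (SE 0.32) and no call (DESeq2 adjusted p = 0.031). TAZi (4.68 and 4.33 TPM) and JUNBi (5.02 and 4.3 TPM) gave 0.41 and 0.44 (DESeq2 adjusted p = 0.653 and 0.473).

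Among the low members, MMP3 had 18 and 9 counts in Ctrli TAM and 1 and 2 in STAT3i TAM, a ratio of 17.0 with a 95% counting interval of 5.23 to 87.5. DESeq2 gave −4.04 (SE 1.34) and no call (adjusted p = 0.0252), whereas edgeR called it (adjusted p = 0.00259). In JUNBi its 4 and 8 counts gave −1.98 (DESeq2 unadjusted p = 0.0666, no adjusted p), in YAPi 8 and 16 counts gave −1.04 (adjusted p = 0.536) and in TAZi 18 and 29 counts gave 0.07. MMP2 had 0.79 and 0.97 TPM in YAPi TAM, above the 0.3 and 0.1 TPM of Ctrli TAM, with 2.00 (SE 0.79) and no call (DESeq2 adjusted p = 0.064). MMP7, at 2 and 1 counts in Ctrli TAM, had 15 and 6 in STAT3i (ratio 3.71, interval 1.11 to 19.4), 10 and 6 in JUNBi (ratio 2.98, interval 0.852 to 15.9) and 4 and 11 in TAZi (ratio 2.98, interval 0.843 to 16.1). MMP15 was not called in any of the 4 knockdowns, with log2 fold changes between −0.24 and 0.74.

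**Figure D3:**
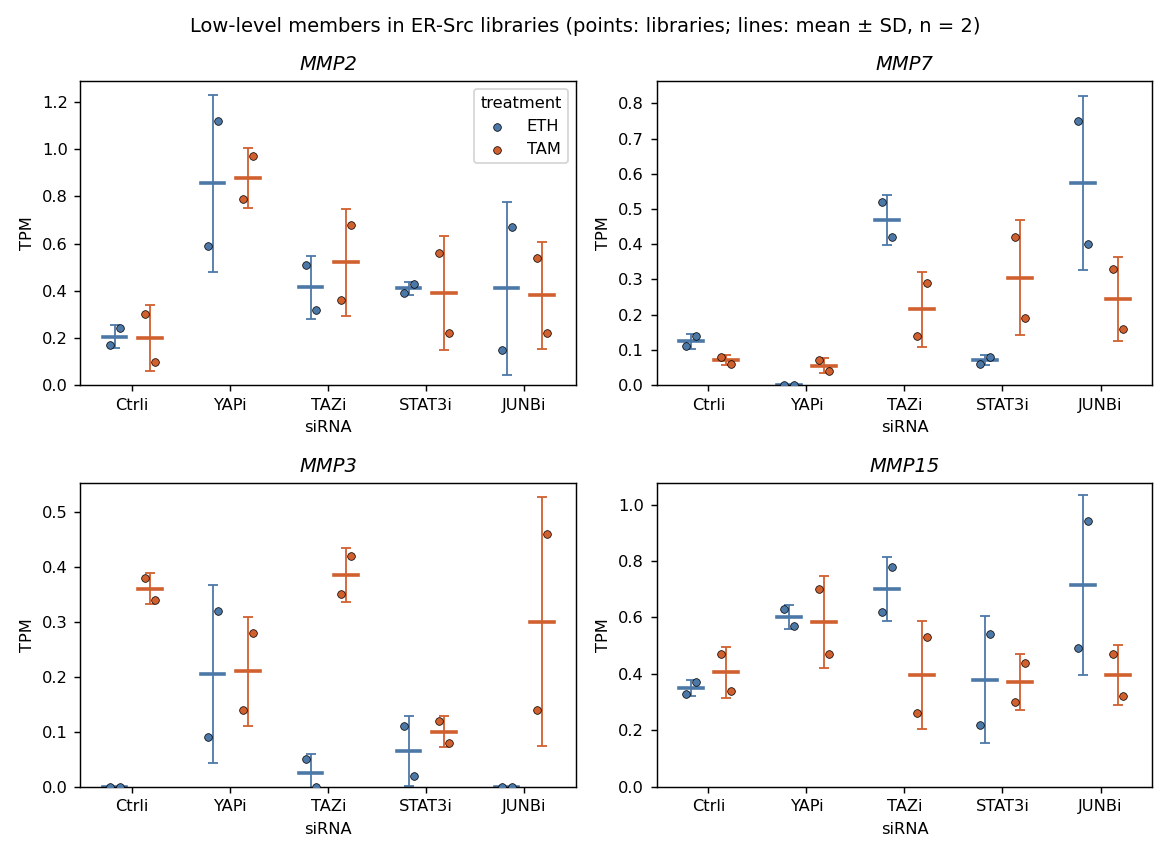
Levels of MMP2, MMP7, MMP3 and MMP15 in TPM (y axis, from 0) in the 20 ER-Src libraries by siRNA and treatment (x axis), 1 point per library with a bar at the mean of 2. MMP2 is highest in YAPi, and MMP3 is at 0 counts in both libraries of Ctrli ETH and JUNBi ETH.

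In ETH, without activation of Src, the same 4 knockdowns were compared with Ctrli ETH, whose libraries the 4 comparisons share. MMP28 was higher in YAPi and TAZi, and MMP2 was higher in YAPi. Calls among all genes made up 11.4% with YAPi, 5.53% with TAZi, 2.76% with JUNBi and 0.201% with STAT3i, and members with an adjusted p numbered 4, 3, 5 and 5. DESeq2 called 0 members in STAT3i and JUNBi, where 0 and 1 had an unadjusted p under 0.05, against 613 and 2153 of all genes. edgeR called 0 members there too, but only 0 and 1 of all genes, so its result says little about the members. The libraries of JUNBi ETH and of STAT3i ETH lay furthest apart in ER-Src. The SD of log2 ratios between replicates was 0.689 and 0.492 there, against 0.214 in Ctrli ETH, 0.259 in YAPi ETH and 0.281 in TAZi ETH. The part of this spread in the lack of calls was not tested. MMP14 was called in none of the 4 knockdowns. Its log2 fold changes were 0.03 in YAPi (DESeq2 adjusted p = 0.937), 0.27 in TAZi (adjusted p = 0.213), −0.32 in STAT3i (adjusted p = 1.0) and −0.15 in JUNBi (adjusted p = 0.932).

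MMP28 stood at 15.65 and 16.3 TPM in YAPi ETH against 4.86 and 6.53 in Ctrli ETH (means 16.0 ± 0.46 and 5.70 ± 1.18 TPM, SD, n = 2). The log2 fold change was 1.5 (SE 0.27, DESeq2 adjusted p = 1.43e-06). Leaving out a library kept the direction but lost the call in 3 cases, at 1.08 (adjusted p = 0.0141) without Ctrli ETH replicate 1, 1.62 (adjusted p = 0.215) without YAPi ETH replicate 1 and 1.37 (adjusted p = 0.431) without YAPi ETH replicate 2. In TAZi ETH the levels were 10.92 and 15.67 TPM, also above Ctrli, and gave 1.22 (SE 0.32, DESeq2 adjusted p = 0.00314). This call was lost in 6 of 10 alternatives, among them edgeR (adjusted p = 0.0308), and without Ctrli ETH replicate 1 (0.80, adjusted p = 0.643), TAZi ETH replicate 1 (1.48, adjusted p = 0.0106) or TAZi ETH replicate 2 (0.88, adjusted p = 0.612). JUNBi ETH reached similar levels of 10.52 and 15.51 TPM without a call (1.12, SE 0.42, DESeq2 adjusted p = 0.112), and STAT3i ETH, at 5.82 and 6.36 TPM, gave −0.17 (adjusted p = 1.0).

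MMP2 had 71 and 39 counts in YAPi ETH (0.59 and 1.12 TPM) against 6 and 9 in Ctrli ETH (0.17 and 0.24 TPM). The log2 fold change was 2.41 (SE 0.73, DESeq2 adjusted p = 0.0091). It kept its direction at 2.06 to 2.82 but was lost without any 1 of the 4 libraries, with adjusted p of 0.0882 to 0.288. MMP1 had 1 and 18 counts in YAPi ETH and none in Ctrli ETH, at least 4.58-fold higher, but nearly all of them lay in replicate 2 (DESeq2 unadjusted p = 0.0105, no adjusted p). MMP3, with 3 and 8 counts against 0 and 0, was at least 2.65-fold higher (unadjusted p = 0.0587), and MMP7, with 0 and 0 counts against 3 and 4, at least 3.23-fold lower (unadjusted p = 0.0971). MMP7 was highest in JUNBi ETH, at 20 and 12 counts (1.94, DESeq2 adjusted p = 0.607), and MMP15 gave 0.88 there (adjusted p = 0.621).

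An interaction term compared the effect of each knockdown under TAM with its effect under ETH. DESeq2 called 0 members, against 0.496% of all genes for YAPi, 1.64% for TAZi, 1.57% for STAT3i and 0.287% for JUNBi. edgeR also called 0 members, but only 15, 5, 56 and 0 of all genes, in the same order. At an unadjusted DESeq2 p under 0.05 there were 1 member for YAPi, 1 for TAZi, 2 for STAT3i and 1 for JUNBi. Of all genes, 835, 1408, 1153 and 903 had such a p, in the same order. For MMP14 the interaction was −0.78 in JUNBi (SE 0.28, unadjusted p = 0.00595, adjusted p = 0.351), so the lower MMP14 of JUNBi in TAM was not shown to differ from its value in ETH. Without JUNBi ETH replicate 1 it was −1.01 and was called (adjusted p = 3.51e-05). It was −0.46 in TAZi (SE 0.14, DESeq2 adjusted p = 0.0409), −0.16 in STAT3i and 0.04 in YAPi. For MMP28 it was 1.09 in STAT3i (DESeq2 adjusted p = 0.483) and −0.82 in TAZi (unadjusted p = 0.0817). For MMP3 the unadjusted p was 0.0073 in YAPi (adjusted p = 0.355) and 0.00529 in STAT3i (no adjusted p).

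**Figure D4:**
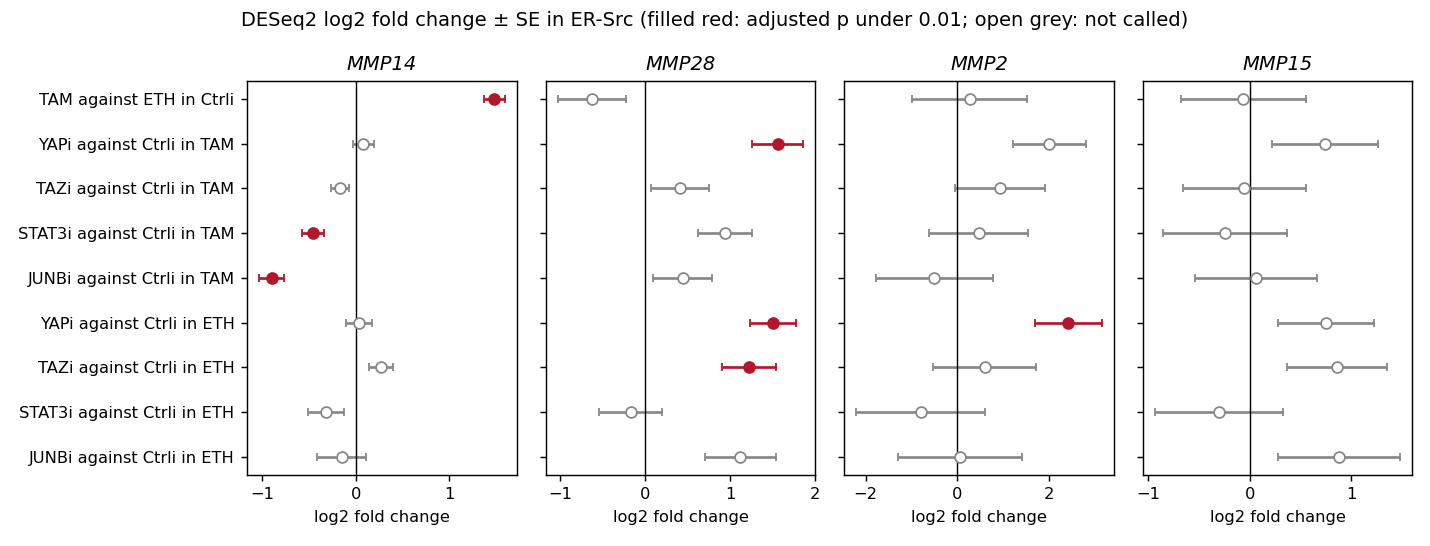
Log2 fold changes (x axis) with bars of 1 SE for MMP14, MMP28, MMP2 and MMP15 in 9 ER-Src comparisons (y axis), with filled red points for DESeq2 calls at an adjusted p under 0.01. The called MMP14 points are TAM against ETH, STAT3i in TAM and JUNBi in TAM, those of MMP28 are YAPi in TAM and in ETH and TAZi in ETH, and MMP2 is called for YAPi in ETH.

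The genes that act with the metalloproteinases in ER-Src were counted from fixed lists, written with earlier results of these data known. Of 13 other MMP genes, 5 had an adjusted p in TAM against ETH under Ctrli. DESeq2 called 0 of the 13 there or in any of the 4 knockdowns in TAM. At an unadjusted p under 0.05 there were 0 as well, against 2573 of all genes in TAM against ETH. The median log2 fold change in TAM against ETH was 0.12, against −0.01 over all genes tested. Of 6 inhibitors, 4 had an adjusted p, 2 rose and 1 fell with TAM (median 0.36). Of all genes tested, 4.56% rose and 1.56% fell. TIMP1, an inhibitor of most secreted members, went from 252 ± 5.52 to 559 ± 23.0 TPM (SD, n = 2, log2 fold change 1.15, DESeq2 adjusted p = 6.37e-25), TIMP2 rose by 0.92 (adjusted p = 0.00176), and TIMP3, which binds to the matrix and also blocks MMP14, went from 4.13 ± 0.29 to 0.51 ± 0.0283 TPM (−2.82, adjusted p = 2.3e-24). In TAM, TIMP1 was lower in all 4 knockdowns, most in STAT3i (−1.62, DESeq2 adjusted p = 4.7e-47) and JUNBi (−1.16, adjusted p = 9.09e-16). TIMP3 was higher in STAT3i (2.90, adjusted p = 1.82e-25), JUNBi (2.35, adjusted p = 3.02e-13) and TAZi (1.49, adjusted p = 0.000325). The JUNBi TAM libraries held 288 ± 4.62 TPM of TIMP1 and 3.06 ± 0.672 TPM of TIMP3 (SD, n = 2).

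Of 8 genes of proenzyme activation and docking, 3 rose and 1 fell with TAM under Ctrli (median 0.57). The urokinase receptor PLAUR rose by 2.34 on the log2 scale (DESeq2 adjusted p = 1.31e-36), urokinase PLAU by 1.60 (adjusted p = 1.44e-09) and CD44, a hyaluronan receptor that docks MMP14 and MMP9, by 0.94 (adjusted p = 3.09e-17). The plasminogen activator PLAT fell by 1.00 (adjusted p = 8.3e-09). Of 11 AP-1 and ETS factors, 5 of 10 with an adjusted p rose and 0 fell with TAM (median 0.82). Among them FOS rose by 2.55, JUNB by 2.51 and ETS2 by 2.37. For this list and the one before, the shares over all genes tested were again 4.56% higher and 1.56% lower. FOS fell in all 4 knockdowns in TAM (YAPi −1.95, TAZi −0.74, STAT3i −3.48, JUNBi −1.60). JUNB was lower in STAT3i TAM (−2.41) as well as in JUNBi TAM (−2.03). DESeq2 called MMP14 lower in both groups, but the STAT3i call was kept in only 1 of 10 alternatives. A link between JUNB and MMP14 was not tested.

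Across the 20 ER-Src libraries MMP14 and MMP28 ran against each other (Pearson's r of log2(TPM + 1) −0.553), as a description of libraries that share treatments and controls. Of 11766 other genes with a mean of at least 1 TPM, those with the highest Pearson's r to MMP14 were KCNJ15 (r 0.908), NREP (r 0.904) and RAB31 (r 0.888). By Spearman's rho KCNJ15 ranked 60 and NREP 120. Those with the highest Pearson's r to MMP28 were C1orf116 (r 0.918), UGT1A6 (r 0.917) and RTN1 (r 0.895). A fibroblast marker list of 6 genes summed to 30.9 to 262 TPM in ER-Src, nearly all of it DCN, while COL1A1, COL1A2 and COL3A1 were at most 0.66 TPM. Its part in the levels of the metalloproteinases was not tested.

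In MDA-MB-231 set 1 the 4 knockdowns share their Ctrli libraries, which differed from them in kind as given above. MMP1 and MMP9 were lower in all 4 knockdowns, and MMP14 was lower in YAPi and TAZi. Calls among all genes were 24.0% in YAPi, 32.3% in TAZi, 35.5% in YAPi_TAZi and 28.1% in TEADi, and 3, 4, 4 and 2 members were called, of 5, 5, 6 and 5 with an adjusted p. The YAPi_TAZi fit used a local dispersion trend, unlike the other comparisons, and with a filter on a total count of at least 10, added after this was seen, the same members were called. Some line markers moved between controls and knockdowns in mean TPM, VIM from 2560 to 614, LAMB3 from 355 to 55.6 and ITGB4 from 76.9 to 12.7. KRT5, at 0 in the controls, reached 11.49 TPM. AXL went from 204 to 139 and CD44 from 445 to 272 TPM, though DESeq2 called CD44 higher in all 4 knockdowns. ZEB1 stayed level, at 15.1 and 15.2 TPM. The part of these markers in the values of the metalloproteinases was not tested. MMP2, MMP7, MMP13 and MMP28 had at most 3 counts in any library of set 1, and MMP10 had counts in the controls only.

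MMP1 was at 279.97 and 332.46 TPM in the controls. The knockdown libraries held 35.63 and 61.31 TPM in YAPi, 35.28 and 71.22 in TAZi, 49.73 and 91.06 in YAPi_TAZi and 34.47 and 63.65 in TEADi. All lay below both controls. Log2 fold changes were −1.13 in YAPi (SE 0.14, DESeq2 adjusted p = 7.28e-14), −1.07 in TAZi (SE 0.15, adjusted p = 6.23e-12), −0.72 in YAPi_TAZi (SE 0.15, adjusted p = 5.13e-06), and the TEADi value was −1.10 (SE 0.15, adjusted p = 1.77e-12). The count model scales libraries by their median gene. TPM divides counts by effective length and scales them to a fixed total, so it shifts with the makeup of a library. The part of each step in the differences between TPM and the count model was not tested. TMM scaling moved the median of all genes from −0.01 to −0.13 in YAPi, from 0.02 to −0.11 in TAZi, from 0.06 to −0.10 in YAPi_TAZi and from −0.01 to −0.11 in TEADi. With the controls of both sets, the MMP1 values were −0.98 to −1.39 and none passed the threshold (adjusted p = 0.0181 in YAPi, 0.0258 in TAZi, 0.105 in YAPi_TAZi and 0.0195 in TEADi). For YAPi_TAZi the call was lost without Ctrli replicate 2 (−0.60, adjusted p = 0.0426) or YAPi_TAZi replicate 1 (−0.64, adjusted p = 0.022).

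MMP9 was at 8.61 and 9.25 TPM in the controls and at 0.09 and 0.43 in YAPi, 0.1 and 0 in TAZi, 0 and 0 in YAPi_TAZi and 0.23 and 1.25 in TEADi. For YAPi the log2 fold change was −3.73 (SE 0.91, DESeq2 adjusted p = 0.000274). In TAZi there was 1 count against 372 in the controls, a ratio of 56.8 with a 95% counting interval of 10.1 to 2250 (adjusted p = 0.000154), and in YAPi_TAZi there were 0, at least 14.5-fold lower (adjusted p = 1.48e-05). TEADi gave −2.15 (SE 0.70, DESeq2 adjusted p = 0.00741), lost in 7 of 12 alternatives, each of the 4 libraries left out among them (−3.31 to −1.67, adjusted p = 0.0149 to 0.258). The YAPi call was lost without Ctrli replicate 1 (−3.82), Ctrli replicate 2 (−3.68) or YAPi replicate 2 (−4.69). The TAZi call was lost without Ctrli replicate 1 (−5.85), Ctrli replicate 2 (−5.71) or TAZi replicate 2 (−4.46). Each of these fits leaves 1 library in a group.

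MMP14 stood at 340.26 and 344.52 TPM in the controls, and at 75.84 and 120.17 in YAPi, 58.19 and 95.59 in TAZi, 108.43 and 143.91 in YAPi_TAZi and 114.59 and 175.6 in TEADi. The count model gave −0.50 in YAPi (SE 0.11, DESeq2 adjusted p = 2.72e-05), −0.90 in TAZi (SE 0.11, adjusted p = 9.8e-15), −0.18 in YAPi_TAZi (adjusted p = 0.197) and 0.10 in TEADi (adjusted p = 0.549). The TPM were thus lower in all 4 knockdowns, whereas the count model called 2, and the TEADi value was −0.003 with TMM scaling. The YAPi call was lost without Ctrli replicate 1 (adjusted p = 0.031) and without Ctrli replicate 2 (adjusted p = 0.0581), and with the controls of both sets it turned to 0.07 (adjusted p = 0.944), while TAZi gave −0.33 (adjusted p = 0.699). For YAPi_TAZi a call appeared without YAPi_TAZi replicate 1 (−0.36, adjusted p = 3.55e-06).

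MMP3 was called higher where its TPM overlapped those of the controls, and MMP15 where its TPM were lower. MMP3 had 3.79 and 6.02 TPM in the controls and 5.87 and 5.76 in TAZi, 3.75 and 7.35 in YAPi_TAZi, 5.77 and 5.38 in TEADi and 1.89 and 4.7 in YAPi, so that all groups overlapped. DESeq2 gave 1.44 in TAZi (SE 0.34, adjusted p = 0.000134) and 1.31 in YAPi_TAZi (SE 0.35, adjusted p = 0.000527), and 1.36 in TEADi (adjusted p = 0.0207). The first of these was lost in 9 of 12 alternatives and the second in 8 of 12, in both cases without any 1 of the 4 libraries (adjusted p = 0.0206 to 0.318 and 0.0868 to 0.442). edgeR also called TEADi (1.40, adjusted p = 0.00282). MMP15 had 4.62 and 4.45 TPM in the controls and 2.86 and 3.61 in YAPi_TAZi, yet its log2 fold change there was 0.92 (SE 0.24, DESeq2 adjusted p = 0.000382), a call lost in 8 of 12 alternatives with values from −0.40 to 1.03, and without any 1 of the 4 libraries (adjusted p = 0.0813 to 0.415). For MMP15 the TPM and the count model thus gave opposite directions. Of the 13 other MMP genes, MMP16 was called higher in all 4 knockdowns, MMP24 in 3 and MMP17 in 1, against the same controls.

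Without the controls, each set 1 knockdown was compared with the other 3. Each of these groups holds 1 replicate 1 library and 1 replicate 2 library, which differ in length minus effective length as given above. DESeq2 called 0 members, as did edgeR and the fit with replicate number as a term. Of all genes, DESeq2 called 0.284% for YAPi, 0.481% for TAZi, 1.33% for YAPi_TAZi and 2.15% for TEADi. For YAPi edgeR called 0 of all genes. MMP14 was ordered TAZi, YAPi, YAPi_TAZi and TEADi from low to high in both replicates, but neighbours in this order overlapped. TAZi gave −0.71 (SE 0.23, unadjusted p = 0.00207, adjusted p = 0.098) and TEADi 0.60 (SE 0.24, adjusted p = 0.15). MMP1 gave 0.38 in YAPi_TAZi (SE 0.13, DESeq2 adjusted p = 0.09). At an unadjusted DESeq2 p under 0.05 there were 1, 1, 2 and 1 members for YAPi, TAZi, YAPi_TAZi and TEADi. Of all genes, 1171, 1292, 1617 and 1880 had such a p, in the same order. 1 fit over all groups called MMP14 in TAZi (−0.70, adjusted p = 4.7e-07) and in TEADi (0.63, adjusted p = 5.28e-06).

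**Figure D5:**
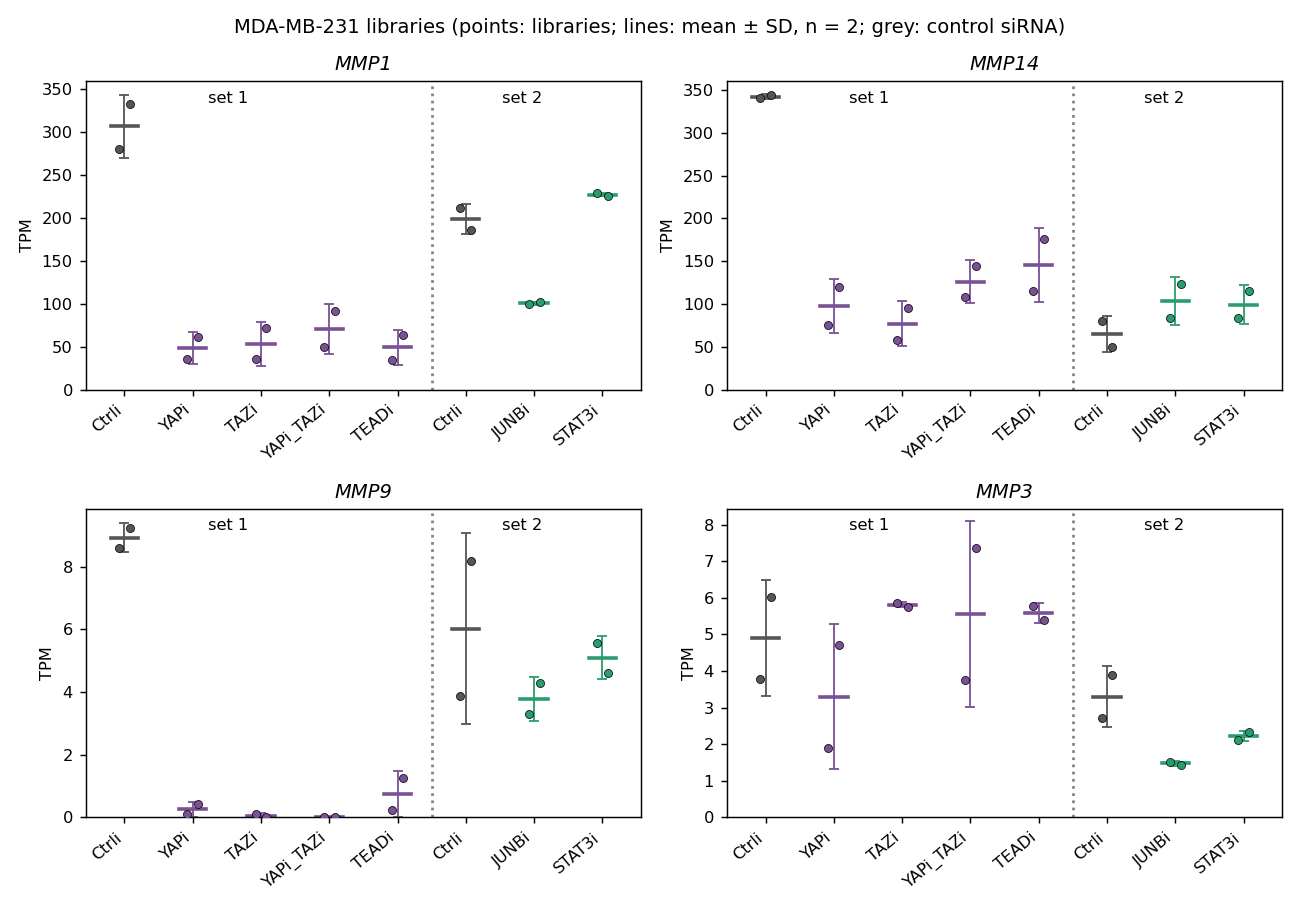
Levels of MMP1, MMP14, MMP9 and MMP3 in TPM (y axis, from 0) in the 16 MDA-MB-231 libraries by set and siRNA (x axis), 1 point per library with a bar at the mean of 2. In set 2 the JUNBi libraries have 99.23 and 101.62 TPM of MMP1, below both controls, and the MMP14 levels of JUNBi and STAT3i lie above both controls.

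In set 2, where controls and knockdowns had like shares of RNA without a poly(A) tail, MMP1 was lower in JUNBi, the only member called. It stood at 210.9 and 186.03 TPM in Ctrli and at 99.23 and 101.62 in JUNBi (means 198 ± 17.6 and 100 ± 1.69 TPM, SD, n = 2). The log2 fold change was −1.26 (SE 0.18, DESeq2 adjusted p = 9.15e-10), with 3.99% of all genes called. It was lost by edgeR (adjusted p = 0.0621) and without JUNBi replicate 2 (−1.17, adjusted p = 0.0226). STAT3i, at 228.48 and 225.58 TPM, gave 0.04 (DESeq2 adjusted p = 0.965), with 0.237% of all genes called. DESeq2 and edgeR called 0 members in STAT3i, and 1 had an unadjusted DESeq2 p under 0.05, against 691 of all genes.

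MMP14 varied within the set 2 controls, at 79.88 and 49.81 TPM, and was at 83.62 and 123.0 TPM in JUNBi and 83.19 and 115.08 in STAT3i. The groups did not overlap, but neither 0.39 in JUNBi (DESeq2 adjusted p = 0.228) nor 0.46 in STAT3i (SE 0.20, adjusted p = 0.369) was called. Without Ctrli replicate 3 the STAT3i value was 0.69 and was called (adjusted p = 0.00851). The direction for JUNBi was thus opposite to the call for MMP14 in JUNBi TAM of ER-Src, and the difference between the lines was not tested. MMP15 had 7.81 and 8.6 TPM in Ctrli and 6.34 and 6.54 in JUNBi (−0.65, DESeq2 adjusted p = 0.148). MMP9, with 3.86 and 8.17 TPM in Ctrli against 3.29 and 4.28 in JUNBi, gave −1.03 (unadjusted p = 0.0366), and MMP3, with 2.71 and 3.88 TPM against 1.51 and 1.43, gave −0.90 (unadjusted p = 0.194). Neither had an adjusted p. In STAT3i of set 2, MMP9 was at 5.58 and 4.62 TPM and MMP3 at 2.12 and 2.32 TPM, without a call for either. MMP7, MMP10 and MMP13 were at 0 in all 6 libraries of set 2, and MMP2 and MMP28 had at most 1 count in any of them.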

How the data were processed

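According to the study's methods, RNA was sequenced with the TruSeq Ribo Profile kit on a HiSeq instrument, although the share of RNA without a poly(A) tail differed between the 36 libraries. By the same methods, the authors trimmed the reads, aligned them with STAR to the GENCODE version 30 transcriptome (hg38, up to 20 alignments per read) and quantified genes with RSEM. The authors deposited RSEM expected counts, which are estimated reads per gene and not normalized. The deposited TPM values are the same estimates divided by effective length and scaled by the authors' RSEM run to a fixed total, so they shift with the makeup of a library.

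Symbols came from GENCODE version 44, which matched 93.1% of 60725 genes. The 746 identifiers of other kinds were left out. Groups came from the sample titles. Expected counts were rounded and compared with DESeq2 1.42.0 (R 4.3.3) by the Wald test, 1 run per comparison, with Benjamini-Hochberg adjustment over all genes and calls at an adjusted p under 0.01, as in the study's methods. Genes that DESeq2's independent filtering left out have no adjusted p, and their unadjusted DESeq2 p is given. With 2 libraries against 2, an exact permutation test cannot go below 0.333, so no such test was made. edgeR 4.0.16, TMM size factors, effective-length offsets, filters, 1 fit over all groups, the replicate number as a block and leaving out each library were the alternatives. The code was tested on simulated data. Low counts were set against a floor of 3 counts over a group, and 95% counting intervals were used. Depth was 1411304 to 19161700 expected counts per library. Replicates differed by more than sampling noise in every group. The members and gene lists were chosen with earlier results of these data known. The rule was to name all 10 members, with those near 0 counts given together, and listed partners only where called in TAM against ETH or in at least 2 TAM knockdowns, at most 4 per list. MMP1, MMP2, MMP3, MMP9, MMP13 and MMP28 had no promoter entry, and protein sequences were not used here.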

Additional observations from a re-analysis of the deposited data

How the results depend on the processing

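Of 26 called results for single members, 4 were kept under every alternative, all for MMP14 (JUNBi against Ctrli in TAM, and TAM against ETH in Ctrli, YAPi and TAZi). In 130 alternative fits a member had no adjusted p. At this depth MMP10 and MMP13 could not be compared, and the other low members only by counts. Where 1 library is left out, its group has 1 library left, which is assumed to vary like the other group. The cause of each change below was not tested.

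In TAM against ETH under Ctrli, 2 members were called, and 1 with effective-length offsets, with a mean count of at least 10 and with the replicate block. Of all genes, 974 were called, and 953, 1041 and 626 in these fits, in the same order. In set 1 against controls there were 13 calls over the 4 knockdowns, 8 with the replicate block, 3 with the controls of both sets and 14 with a total count of at least 10, a filter chosen after seeing the data. Among the set 1 knockdowns there were 0, and 2 with 1 fit over all groups. Set 2 had 1 call, and 0 with edgeR. Leaving out 1 library gave 1 to 1 calls for TAM against ETH in Ctrli, 1 to 3 for the knockdowns in TAM, 0 to 3 in ETH, 3 to 5 for TAM against ETH within knockdowns, 0 to 1 for the interactions, 5 to 13 for set 1 against controls, 0 to 0 among its knockdowns and 0 to 2 in set 2.

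Log2 fold changes changed sign as follows, and of these results only MMP14 in YAPi and MMP15 in YAPi_TAZi of set 1 had been called. With the controls of both sets, MMP14 was 0.07 in YAPi and 0.39 in YAPi_TAZi, and MMP15 −1.26 in YAPi, −0.40 in YAPi_TAZi and −0.99 in TEADi. With TMM, MMP15 in YAPi was −0.03 and MMP14 in TEADi −0.003. With a mean count of at least 10, MMP15 in TAZi was 0.04, and with 1 fit over all groups MMP15 in TEADi against the other knockdowns was 0.04. With offsets, MMP15 for TAM against ETH was 0.47 in Ctrli, 0.10 in YAPi and 0.0003 in STAT3i, MMP2 was 0.23 in YAPi and −0.06 in STAT3i, MMP14 in YAPi was −0.04 in TAM and −0.12 in ETH, MMP2 in STAT3i ETH was 0.88, and the interactions were 0.01 for MMP2 in YAPi, −0.22 for MMP28 in YAPi and −0.47 for MMP15 in STAT3i.

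Leaving out 1 library in ER-Src, MMP15 ran from −0.33 to 0.19 for TAM against ETH in Ctrli, −0.39 to 0.49 in STAT3i, −0.48 to 0.06 for STAT3i in TAM, −0.48 to 0.07 in ETH, −0.18 to 0.36 for JUNBi in TAM, and −0.27 to 0.26 and −0.33 to 0.54 for the YAPi and STAT3i interactions. MMP14 ran from −0.04 to 0.11 for YAPi in ETH, −0.42 to 0.08 for JUNBi in ETH and −0.05 to 0.13 for the YAPi interaction. MMP28 ran from −0.57 to 0.40 for STAT3i in ETH and −0.51 to 0.47 for the YAPi interaction, MMP2 from −0.29 to 0.47 for JUNBi in ETH and MMP1 from −0.65 to 0.54 for TAM against ETH in YAPi. In set 1, MMP15 ran from −0.14 to 0.21 in YAPi, −0.44 to 0.27 in TAZi and −0.15 to 0.14 for TEADi against the other knockdowns, MMP3 from −0.32 to 0.81 in YAPi, MMP14 from −0.09 to 0.21 in TEADi and MMP1 from −0.13 to 0.0007 for TAZi against the other knockdowns. In STAT3i of set 2, MMP1 ran from −0.01 to 0.09. With Spearman's rho, KCNJ15 was at 0.788 (rank 60) and NREP at 0.73 (rank 120) in likeness to MMP14.

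Replicate numbers are shared between groups except in set 2, where no paired analysis was possible because its controls carry numbers 3 and 4. The labels do not say what a number marks. Deviations of same-numbered libraries correlated at −0.048 to 0.326 in the 2-group ER-Src comparisons, −0.023 to −0.008 for set 1 against controls and 0.479 to 0.532 among its knockdowns. With the replicate block, the members called were 1 of 2 for TAM against ETH and 8 of 13 in set 1, MMP15 for TAM against ETH in STAT3i was 0.04 and MMP28 for the YAPi interaction −0.02. The block lost 8 calls, MMP3 for TAM against ETH in Ctrli (adjusted p = 0.0435), MMP14 in STAT3i TAM (0.0302), MMP2 in YAPi ETH (0.0742) and, in set 1, MMP3 in TAZi (0.109) and YAPi_TAZi (0.0399), MMP15 in YAPi_TAZi (0.034) and MMP9 in YAPi_TAZi (0.177) and TEADi (0.0443). It added MMP14 (0.71, adjusted p = 0.00336) and MMP28 (−1.26, adjusted p = 0.00854) for TAM against ETH in JUNBi.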
